A study of Mus musculus with 6 samples.

Results

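Inflammasome and pyroptosis genes were examined in megakaryocyte progenitors (MkP), the sorted blood precursors of megakaryocytes and platelets, from fetal liver and adult bone marrow. The 8 genes were Casp1, Casp4, Nlrp3, Nlrc4, Pycard, Gsdmd, Il1b and Il18, taken with every probe set that the platform annotation gives to their symbols. Of these, 7 had a probe set, 9 probe sets in all, among 45037 probe sets other than array controls, and Nlrc4 is not named in the annotation used here. Those 7 are among 18193 genes with a probe set. The genes were selected on the difference in signal between fetal liver and marrow on these same arrays, so their signals and differences are a description, without a test. The signals came from Affymetrix arrays hybridised with total RNA of wild-type C57BL/6 mice, 3 arrays per tissue. Marrow was taken from adults 12 to 18 weeks old and fetal liver at E13.5. From both organs the cells were sorted as negative for lineage markers and Sca-1 and positive for c-kit, CD150 and CD41. The samples are labelled as biological replicates, with no number of animals or embryos given for any of them, so the spread between arrays may include pooled animals.

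An inflammasome is a protein complex that a cell builds around a sensor of infection or damage. The sensor recruits the adaptor ASC, the product of Pycard, and ASC brings procaspase-1 molecules together so that they cleave themselves. Active caspase-1 matures the cytokines IL-1β and IL-18 and cuts gasdermin D, whose freed N-terminal part forms pores in the plasma membrane and kills the cell by pyroptosis. Caspase-11, encoded by Casp4 in the mouse, cuts gasdermin D after binding bacterial lipopolysaccharide in the cytosol. The machinery is best known from macrophages, monocytes and neutrophils, and platelets are also described to carry inflammasome components and IL-1.

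The arrays had a median signal of 74.1 to 80.2 in marrow and 62.8 to 65.5 in fetal liver, without overlap. A signal was taken as above background where it exceeded the highest of 27 bacterial control probe sets on its array, which lay between 22.2 and 35.1. Of 10 megakaryocyte markers 8 had a probe set, 7 were kept for testing and 0 of these passed the threshold in limma, beside 2 lower and 1 higher in fetal liver at an unadjusted p under 0.05. Their summed signal was 33064 to 35851 in marrow and 25304 to 31541 in fetal liver, without overlap. Most of this sum on each array was the single gene Pf4, a platelet chemokine. Its signals were 22903, 20368 and 20094 in marrow and 19031, 15264 and 16541 in fetal liver. The log2 signals of Pf4 differed by -0.32 ± 0.14 (SE, adjusted p = 0.232) and those of Vwf, von Willebrand factor, by -0.40 ± 0.21 (adjusted p = 0.332). Itga2b, which encodes the CD41 of the sort, was above background on all 6 arrays. It was lower in fetal liver without overlap, by -0.64 ± 0.22 (adjusted p = 0.133). Treml1, a further marker of the list, was higher there without overlap, by 0.89 ± 0.23 (adjusted p = 0.0502). The collagen receptor gene Gp6 was below background on the 3 marrow arrays and above it on 2 of fetal liver.

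The inflammatory caspases were the members with the widest gap between tissues. Casp1 had signals of 821, 413 and 865 on the marrow arrays and 2.33, 7.22 and 12.6 on the fetal liver arrays. No fetal liver array was above background for it, every marrow array was, and the tissues did not overlap. Marrow averaged 700 ± 249 (SD, n = 3) against 7.38 ± 5.13 for fetal liver. Measured against the background of the fetal liver arrays, Casp1 was at least 20.4-fold higher in marrow. This bound sets the mean log2 signal of marrow against the mean, in fetal liver, of the higher of the probe set's own signal and the background of each array.

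Casp4 had signals of 1423, 1417 and 851 in marrow and 56.5, 27.1 and 24.8 in fetal liver. The lowest marrow signal lay far above the highest fetal liver signal, and 2 of the 3 fetal liver arrays stood above background. The log2 difference, fetal liver minus marrow, was -5.03 ± 0.47 (SE), which is 32.8-fold. Log2 values here are log2(signal + 2.87), a scale that understates the change of dim probe sets.

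**Figure D1:**
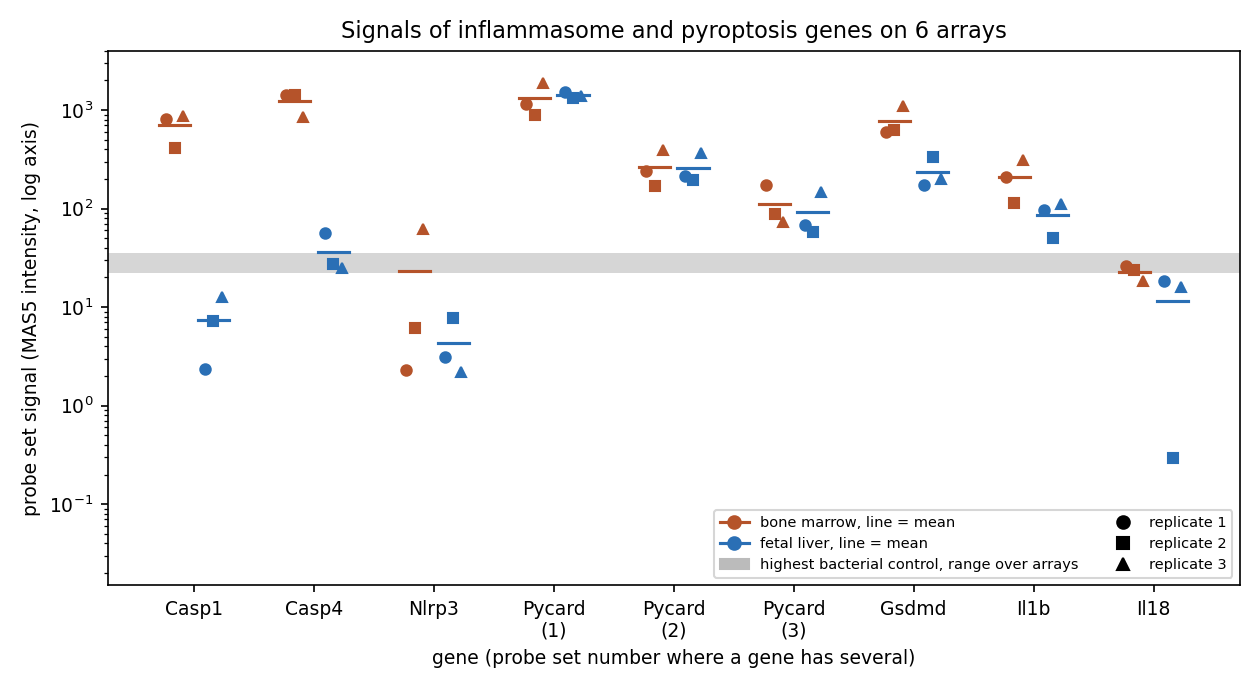
Signal of each of the 9 probe sets on the 3 marrow and 3 fetal liver arrays, on a log axis, with a point per array, a line at the mean of the tissue and a grey band for the range of background over the arrays. Casp1, Casp4, Gsdmd and Il1b have every marrow point above every fetal liver point, while Pycard overlaps in all 3 probe sets and Nlrp3 and Il18 lie mostly at or under the band.

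Casp1 and Casp4 are neighbours on mouse chromosome 9, followed there by Casp12, a further member of the inflammatory caspase group. Their sequences before the annotated start are shown because these genes lie side by side and had lower signals in fetal liver, and that of Pycard, on chromosome 7, because its signals overlapped. Each run holds the 250 bases before the start, 5′ to 3′ on the strand of the gene, from RefSeq on GRCm38.p6, in which all members but Gsdmd matched an entry. Capitals mark matches to 4 motifs searched on both strands, with no match in the Casp1 window.
Casp1, chr9:5298267-5298516, plus strand: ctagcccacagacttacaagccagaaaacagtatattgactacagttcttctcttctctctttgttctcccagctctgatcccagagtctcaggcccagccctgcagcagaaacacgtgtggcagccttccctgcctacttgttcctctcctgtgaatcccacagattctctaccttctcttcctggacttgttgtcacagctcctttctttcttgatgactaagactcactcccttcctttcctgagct
Casp4, chr9:5308599-5308848, plus strand: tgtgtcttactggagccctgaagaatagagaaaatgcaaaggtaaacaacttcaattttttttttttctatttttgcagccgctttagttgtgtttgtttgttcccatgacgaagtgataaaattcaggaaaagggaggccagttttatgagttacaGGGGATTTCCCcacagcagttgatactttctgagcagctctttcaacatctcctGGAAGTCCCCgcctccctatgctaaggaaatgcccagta
Casp12, chr9:5345226-5345475, plus strand: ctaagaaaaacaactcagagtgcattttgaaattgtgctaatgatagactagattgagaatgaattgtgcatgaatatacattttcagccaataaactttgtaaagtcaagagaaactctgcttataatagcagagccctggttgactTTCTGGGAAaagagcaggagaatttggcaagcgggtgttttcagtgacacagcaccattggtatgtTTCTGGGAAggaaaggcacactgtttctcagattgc
Pycard, chr7:127993868-127994117, minus strand: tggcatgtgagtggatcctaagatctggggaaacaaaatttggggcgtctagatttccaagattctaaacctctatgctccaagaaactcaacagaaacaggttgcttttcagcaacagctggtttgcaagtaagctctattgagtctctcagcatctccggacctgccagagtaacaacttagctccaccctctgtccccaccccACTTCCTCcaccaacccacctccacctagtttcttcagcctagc

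The motifs were the interferon-stimulated response element, the STAT element GAS read as TTCNNNGAA, the myeloid ETS factor site of PU.1 read as GAGGAAGT, and the NF-κB consensus. Of 32851 windows of this length over all RefSeq starts, they occurred in 2.98%, 7.02%, 2.44% and 7.25%. The Casp4 window, the first of its 2 annotated starts, held overlapping NF-κB matches from -93 to -83, on both strands, and another on the opposite strand from -39 to -30. The Casp12 window held GAS matches from -102 to -94 and from -36 to -28. In the Pycard window a PU.1 match on the opposite strand ran from -44 to -37. Of the other members, the Nlrp3 window at 1 of 2 starts had an NF-κB match and the windows of Nlrc4, Il1b and Il18 had none. These are matches of letters only, and no binding was measured.

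Casp12 was not among the 8 genes and was tested. Its signals were 171, 309 and 135 in marrow and 26.7, 32.8 and 4.72 in fetal liver, where 1 of 3 arrays was above background. It fell by 3.29 on the log2 scale (SE 0.71, limma adjusted p = 0.0247). Alternatives gave adjusted p from 0.0111 to 0.0825, and the call was lost when marrow replicate 1 or 2, fetal liver replicate 3 or the variance trend was left out. Its size depends on the dim fetal liver signals, at -2.49 with signals raised to the bacterial controls, -2.58 with an offset of 16 and -2.59 without fetal liver replicate 3. The protein-coding genes around the 3 caspases were examined after these values had been seen. Aasdhppt, Kbtbd3 and Msantd4 on one side and Pdgfd on the other were not past the threshold (0.34 ± 0.25, -0.88 ± 0.52, -0.17 ± 0.25 and 0.05 ± 0.66 on the log2 scale, adjusted p = 0.509, 0.396, 0.762 and 0.98). Gria4, next to Casp1, and Ddi1, beyond Pdgfd, were too dim to be tested.

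**Figure D2:**
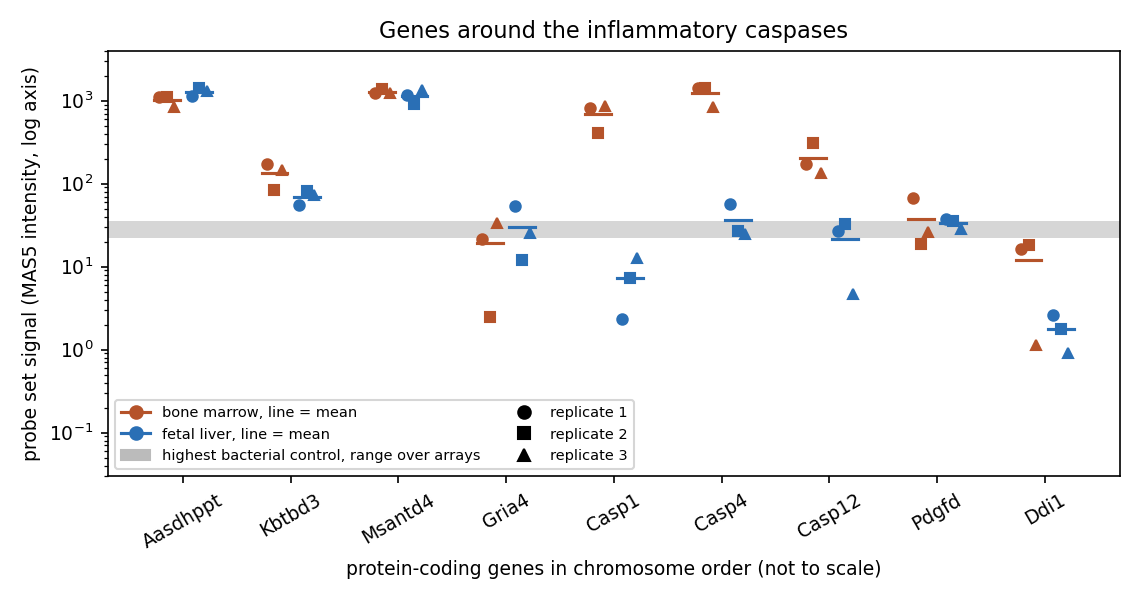
Signals of the protein-coding genes around Casp1 in chromosome order, on a log axis, with a point per array, a line at the mean of each tissue and a grey band for background. Casp1, Casp4 and Casp12 have marrow points between 135 and 1423 and fetal liver points of at most 56.5, while all points of Aasdhppt and Msantd4 lie between 833 and 1415.

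The sensor and the adaptor gave a different picture from the caspases. Nlrp3, the sensor of potassium efflux and membrane damage, had signals of 2.3, 6.07 and 62.1 in marrow and 3.12, 7.72 and 2.2 in fetal liver. Only marrow replicate 3 was above background, so Nlrp3 was not detected on the other 5 arrays and no difference between tissues is given for it. Pycard, the ASC adaptor, had signals of 1156, 881 and 1898 in marrow and 1537, 1325 and 1390 in fetal liver in its first probe set. The fetal liver signals lay inside the range of marrow, and the log2 difference was 0.18 ± 0.30 (SE). The other 2 Pycard probe sets also overlapped, with differences of -0.01 ± 0.46 and -0.29 ± 0.58. The sign differed between probe sets. It also turned for the first probe set without marrow replicate 2 (-0.07) and for the third without marrow replicate 1 (0.07). For the second it turned under median centring (0.24), quantile normalization (0.20) and without marrow replicate 3 (0.31), fetal liver replicate 1 (0.09) or 2 (0.16). All 3 Pycard probe sets were above background on every array.

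Gsdmd, the pore-forming effector, had signals of 597, 625 and 1112 in marrow and 173, 331 and 198 in fetal liver. Every marrow signal exceeded every fetal liver signal, and all 6 were above background. The means were 778 ± 290 (SD, n = 3) and 234 ± 85.0, a log2 difference of -1.72 ± 0.40 (SE) or 3.29-fold.

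Il1b, the cytokine that caspase-1 matures, had signals of 207, 115 and 310 in marrow and 96.2, 50.8 and 111 in fetal liver. All 6 were above background, and the tissues were separated only by the small gap between marrow replicate 2 and fetal liver replicate 3. The log2 difference was -1.23 ± 0.55 (SE), with means of 211 ± 97.5 (SD, n = 3) and 85.9 ± 31.3. Il18, the other substrate cytokine, had signals of 26.2, 23.8 and 18.4 in marrow and 18.5, 0.295 and 16.1 in fetal liver. None of the 6 was above background, so neither tissue has a measured level of Il18.

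Of the 9 probe sets, 7 from 5 genes passed the filter on dim probe sets, and Nlrp3 and Il18 did not. Among these 7, 3 were past an adjusted p of 0.05 as lower in fetal liver (Casp1, Casp4 and Gsdmd), where 3.28% of all 27022 probe sets tested were, and 0 as higher, where 1.78% were. Without overlap and higher in marrow were 4 of the 7, where 14.4% of all probe sets were. These counts follow from how the genes were selected and are read no further. The count of 3 was 2, without Gsdmd, when any marrow array, fetal liver replicate 1 or 3, or the variance trend was left out.

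Within marrow the members did not vary in step. Replicate 3 was the highest marrow array for 5 of the 7 probe sets kept, among them Casp1, Gsdmd and Il1b, and it was the only array with Nlrp3 above background. For Casp4 the same array was the lowest of the 3. Replicate 2 was the lowest marrow array for 4 of the 7. The largest of the 3 marrow signals was 1.67 times the smallest for Casp4, 1.86 times for Gsdmd, 2.1 times for Casp1 and 2.69 times for Il1b.

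Profiles most like those of the 3 members with the highest mean signal were sought by the root mean square distance of centred log2 signals over the 6 arrays. Nearest to Casp4 were Mcemp1 (distance 0.42), Sp100 (0.45) and Adgrl4 (0.46). Nearest to Gsdmd were Klf2 (0.19), Ccl5 (0.20) and Gm11772 (0.22). Nearest to Pycard were Zfp638 (0.06), Mov10 (0.07) and Abcc5 (0.07). With 3 arrays per tissue this likeness mostly records the size of the difference between tissues, which was -4.96 for Mcemp1, -1.62 for Klf2 and 0.21 for Zfp638.

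Other genes of the pathway were taken from 6 lists by role, which were written from general knowledge and not by how the genes moved. Earlier results of these data were known by then, so the lists were not a blind choice. Of their 112 genes, 88 had a probe set and 74 were tested, each by its brightest kept probe set. In fetal liver 15 fell and 0 rose by limma at an adjusted p of 0.05, which is 20.3% lower and 0% higher, where 4.09% of all 11625 genes tested were lower and 2.26% higher. At an unadjusted p under 0.05, 22 were lower and 4 higher. That count of 15 dropped to 9 when marrow replicate 1, fetal liver replicate 1 or the variance trend was left out, and to 8 when marrow replicate 2 or fetal liver replicate 3 was. Of the 74, 27 had every marrow signal above every fetal liver signal (36.5%, where 14.2% of all genes did) and 3 the reverse (13.8% of all genes). The median difference was -0.44 on the log2 scale, beside 0.01 over all genes. Median centring moved the median of all genes by 0.25 towards fetal liver, and 13 genes were then lower and 2 higher, with a median of -0.19. It also turned the split of calls over all probe sets from 64.8% lower in fetal liver to 35.2%. In bulk RNA of sorted cells, fewer cells of a type and less RNA per cell cannot be told apart.

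**Figure D3:**
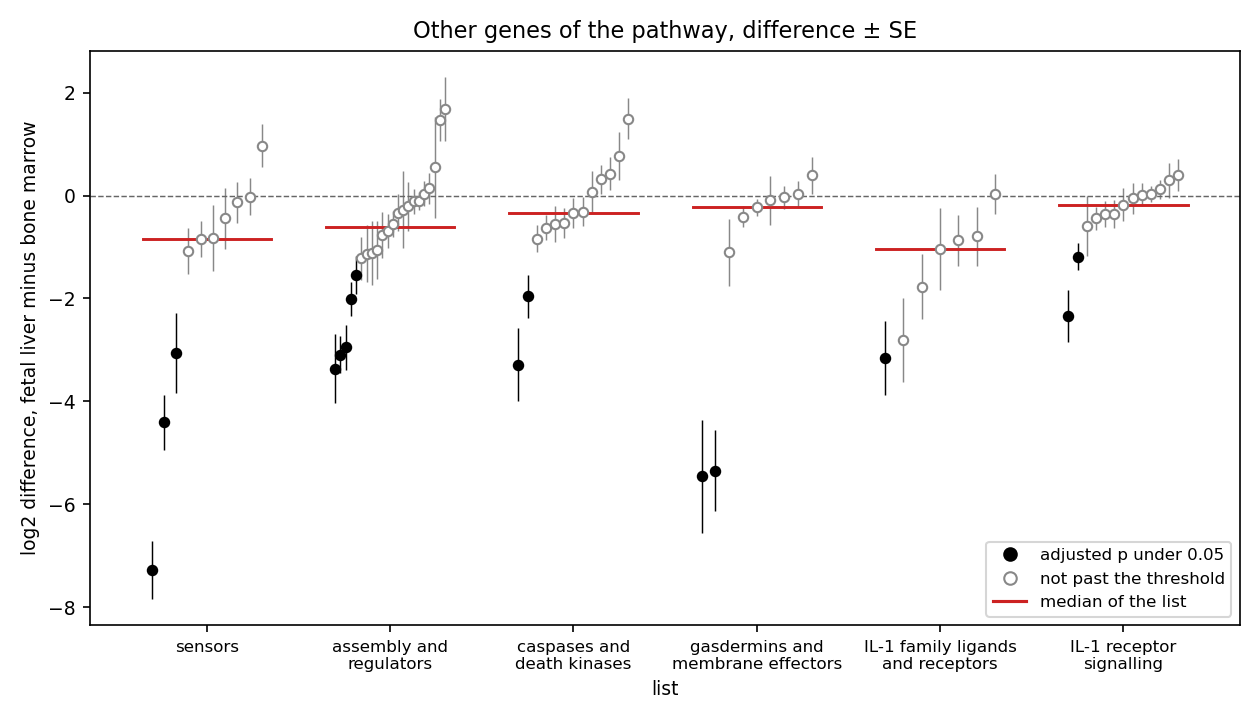
Log2 difference, fetal liver minus marrow, of the 74 genes tested in the 6 lists, ordered by difference within each list, with the SE of the fit as bars, filled points for an adjusted p under 0.05 and a red line at the median of the list. All 15 filled points lie under 0, and each list has open points on both sides of 0.

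The list of 18 further sensors also held NOD-like receptors with other roles, such as Nlrc5. Of these 18 genes, 14 had a probe set and 10 were tested, of which 3 fell and 0 rose (median -0.84). Nlrc5, a NOD-like receptor that switches on MHC class I genes, had signals of 1480, 2937 and 1361 in marrow and 13.8, 3.23 and 12.7 in fetal liver. It was not above background on any fetal liver array and was at least 55.3-fold higher in marrow (adjusted p = 6.61e-05). Mefv, which encodes the sensor pyrin, had signals of 290, 273 and 224 in marrow and 10.3, 7.05 and 11.7 in fetal liver. Pyrin transcripts were therefore above background only in marrow, at least 8.04-fold higher (adjusted p = 0.00132).

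Nod1, a cytosolic peptidoglycan sensor, was at least 4.39-fold higher in marrow at the threshold itself (adjusted p = 0.05), and its call was lost in 13 of 17 alternatives (adjusted p 0.029 to 0.175), among them those without marrow replicates 2 and 3 and without each fetal liver array. Its marrow signals of 52.6, 266 and 197 were above background and its fetal liver signals of 23.3, 4.79 and 22.9 were not. The Naip genes, whose products hand bacterial ligands to NLRC4, did not pass the threshold. Naip2 differed by -0.02 ± 0.36 (adjusted p = 0.984), Naip5 by -1.07 ± 0.45 (0.217) and Naip6 by -0.13 ± 0.40 (0.908), and the probe sets of these close paralogues may share targets. Aim2, the sensor of cytosolic DNA, differed by -0.83 ± 0.64 (adjusted p = 0.528) and was above background on all 6 arrays.

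Of 22 genes of assembly and regulation tested, 5 fell and 0 rose (median -0.62). Serpinb1a, an inhibitor of neutrophil serine proteases, had signals of 2121, 1091 and 1932 in marrow and 146, 204 and 236 in fetal liver, and fell by 3.09 (SE 0.36, adjusted p = 8.67e-04). Tnfaip3, which encodes the NF-κB inhibitor A20, fell by 2.95 (SE 0.44, adjusted p = 0.00366), from 744, 507 and 464 to 78.0, 90.1 and 48.4. Irf1, an interferon-induced transcription factor, fell by 2.01 (SE 0.33, adjusted p = 0.00697), and its 3 marrow signals lay between 1118 and 1151. Gbp2, a guanylate-binding protein that attacks pathogen membranes, fell by 3.37 (SE 0.67, adjusted p = 0.0162; 0.061 without marrow replicate 1 and 0.00674 to 0.061 over all alternatives). The count of 5 was 3 without marrow replicate 1. It was 4 without marrow replicate 2, without each fetal liver array, under median centring and without the variance trend. The fifth gene called was Txnip, an inhibitor of thioredoxin that is also described to bind NLRP3, at -1.55 ± 0.37 (adjusted p = 0.0368). The Txnip call was lost in each of these alternatives, the one without marrow replicate 1 included. Nek7, the kinase that binds NLRP3, differed by -0.55 ± 0.26 (adjusted p = 0.267) and the ATP-gated channel P2rx7 by -0.27 ± 0.75 (adjusted p = 0.892).

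Among 13 other caspases and cell death genes tested, 2 fell and 0 rose (median -0.33), Casp12 as given above and Mlkl. Mlkl, the executioner of necroptosis, had signals of 539, 438 and 309 in marrow and 113, 111 and 93.6 in fetal liver, and fell by 1.96 (SE 0.41, adjusted p = 0.0222). This call was lost without marrow replicates 1 and 2 and without each of the 3 fetal liver arrays (0.00793 to 0.0974 over all alternatives). The count of 2 was 0 without marrow replicates 1 and 2 and without fetal liver replicate 3, and 1 without fetal liver replicates 1 and 2 and without the variance trend. Its upstream kinase Ripk3 differed by 0.43 ± 0.32 (adjusted p = 0.521). The apoptotic initiators Casp8 and Casp9 differed by -0.84 ± 0.26 (adjusted p = 0.0941) and 0.32 ± 0.28 (adjusted p = 0.589). The apoptotic executioner Casp6 had a mean 2.84-fold higher in fetal liver (adjusted p = 0.0512), with signals of 163, 154 and 295 in marrow and 472, 592 and 623 in fetal liver. It was past the threshold as higher in fetal liver under median centring, quantile normalization and 6 further alternatives.

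Of 9 gasdermins and membrane effectors tested, 2 fell and 0 rose (median -0.23, or under median centring 0.02, beside 0.26 for all genes). Both are serine proteases of neutrophil granules that can cut gasdermin D in neutrophils. Ctsg, cathepsin G, had signals of 5295, 1265 and 8636 in marrow, 27.0, 236 and 118 in fetal liver and a log2 difference of -5.35 ± 0.79 (adjusted p = 0.00359). Elane, neutrophil elastase, had signals of 2145, 151 and 4024 in marrow, 28.4, 58.2 and 5.35 in fetal liver and a log2 difference of -5.46 ± 1.10 (adjusted p = 0.0183). The Elane call was lost without marrow replicates 1 and 3, without fetal liver replicates 1 and 3 and with no variance trend (0.00228 to 0.0892 over all alternatives), so the count of 2 was 1 in each of these. Elane was above background on 1 of 3 fetal liver arrays, and its difference was -4.72 with signals raised to the bacterial controls, -4.78 with an offset of 16 and -6.88 to -4.52 with an array left out, these ends without marrow replicates 2 and 3. It was -6.1 without fetal liver replicate 2 and -4.65 without replicate 3. That of Ctsg was -6.15 without marrow replicate 2, -4.51 without fetal liver replicate 1 and -6.01 without fetal liver replicate 2. Gsdme, the gasdermin that apoptotic caspases cut, differed by -0.41 ± 0.20 (adjusted p = 0.306). Ninj1, which ruptures the membrane late in pyroptosis, differed by -0.09 ± 0.48 (adjusted p = 0.948). The ESCRT genes Chmp4b, Vps4a and Chmp3, whose products repair gasdermin pores, differed by -0.03 ± 0.22, 0.03 ± 0.25 and 0.40 ± 0.36 (adjusted p = 0.969, 0.971 and 0.596).

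Among 18 ligands and receptors of the IL-1 family, 13 had a probe set, 7 were tested, 1 fell and 0 rose (median -1.04). Il1r1, the signalling receptor of IL-1, had signals of 321, 275 and 251 in marrow and 41.4, 70.3 and 6.9 in fetal liver and fell by 3.16 (SE 0.72, adjusted p = 0.0311). Its call was lost without each of the 3 marrow arrays, without fetal liver replicates 1 and 3 and with no variance trend (0.00997 to 0.0854 over all alternatives), which took the count to 0. Its difference was -3.77 without fetal liver replicate 2 and -2.32 without replicate 3. Il18r1, a chain of the IL-18 receptor, was above background on all 3 marrow arrays and on no fetal liver array, at least 3.64-fold higher in marrow, and was not past the threshold (adjusted p = 0.0758). Il1a and Il33, further cytokines of the family, stayed below background on all 6 arrays.

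The median of 13 genes of IL-1 receptor signalling tested was -0.18, or under median centring 0.07, beside 0.26 for all genes. Of the 13, 2 fell and 0 rose, and both encode brakes on the pathway. Irak3, the inhibitory kinase IRAK-M, had signals of 257, 298 and 422 in marrow and 36.9, 60.3 and 98.5 in fetal liver and fell by 2.34 (SE 0.51, adjusted p = 0.0257; 0.00355 to 0.0893 over all alternatives), or by 2.95 with the mean of its probe sets. Nfkbia, the NF-κB inhibitor IκBα, fell by 1.19 (SE 0.26, adjusted p = 0.0244; 0.0157 to 0.119 over all alternatives). The Irak3 call was lost without marrow replicates 2 and 3 and without fetal liver replicates 1 and 2, and the Nfkbia call without marrow replicates 2 and 3, without fetal liver replicates 2 and 3 and without the variance trend. The count of 2 was therefore 0 without marrow replicates 2 and 3 and fetal liver replicate 2. The positive relay was not past the threshold, with the adaptor Myd88 at 0.41 ± 0.31 (adjusted p = 0.52), Irak1 at -0.44 ± 0.22 (0.315) and Traf6 at -0.36 ± 0.27 (0.509). Neither was Tollip, a further brake in the list, at 0.02 ± 0.22 (adjusted p = 0.975).

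Markers of myeloid cells, in which inflammasome genes are well known, had lower sums in fetal liver, with exceptions among the single genes. Of 15 granulocyte markers 13 had a probe set, 11 were tested and 9 fell, with a summed signal of 37649 to 50424 in marrow and 3433 to 5494 in fetal liver. Ltf, Lcn2, Mmp8, Fcnb and Chil3 stayed below background on each fetal liver array, whereas Mpo, the myeloperoxidase, was at 2550 to 5004 there, after 8804 to 24686 in marrow. S100a9, a calcium-binding protein of neutrophils, fell by 7.23 (SE 1.19, adjusted p = 0.00646). Its difference was -6.41 with signals raised to the bacterial controls, -6.58 with an offset of 16, -8.71 without fetal liver replicate 1 and -5.48 without fetal liver replicate 3. The Mpo call (adjusted p = 0.00546) and the S100a9 call were lost when the variance trend was dropped (0.0656 and 0.0603). Of 18 monocyte and macrophage markers 16 had a probe set, 7 were tested and 3 fell, with sums of 8357 to 13622 in marrow and 1738 to 2050 in fetal liver. Most of these sums was the single gene Lyz2, lysozyme, at 6469, 5971 and 9136 in marrow and 1258, 1181 and 1540 in fetal liver. Lyz2 fell by 2.42 (SE 0.22, adjusted p = 2.17e-04) and Csf1r, the receptor of the macrophage growth factor, by 3.08 (SE 0.39, adjusted p = 0.00153; 2.08 with the mean of its probe sets). The highest monocyte and macrophage sum was that of marrow replicate 3. On this array Casp1, Gsdmd, Il1b and Nlrp3 were highest and Casp4 was lowest in marrow. The granulocyte sum was also highest there, and without Mpo, a choice made after its values were seen, it was 18601, 30196 and 25738 on marrow replicates 1, 2 and 3, highest on replicate 2. Cd14 stayed below background on all 6 arrays, and C1qa, C1qc, Adgre1, Cd163, Cx3cr1, Siglec1 and Fcgr1 on the 3 of fetal liver. In marrow, Cd163 and C1qa were above background on all 3 arrays, Siglec1 on 2, and C1qc, Adgre1, Cx3cr1 and Fcgr1 on 1 each. The macrophage receptor gene Marco, too dim to be tested, was higher in fetal liver without overlap (30.6, 9.23 and 24.3 against 48.3, 46.0 and 46.7). Timd4, also not tested, had fetal liver signals of 16.2, 45.2 and 56.6 against 4.05, 10.1 and 41.0. Cxcr2, a neutrophil chemokine receptor, differed by 0.02 (adjusted p = 0.99). The part of such cells in the differences of the inflammasome genes was not tested.

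The remaining marker lists showed both directions. Of 8 mast cell, basophil and eosinophil markers 3 of 5 tested fell, with sums of 1618 to 3196 in marrow and 146 to 388 in fetal liver. Ms4a2, a chain of the IgE receptor, fell by 2.87 (SE 0.45, adjusted p = 0.00474), and Cpa3, a mast cell protease, differed by -1.95 ± 0.56 (adjusted p = 0.076; past the threshold in 1 of 18 alternatives). Of 10 lymphoid markers 1 of 2 tested fell (sums of 1163 to 1800 and 223 to 255), and this was Nkg7, a granule protein of cytotoxic cells, at -3.28 ± 0.36 (adjusted p = 6.72e-04). Nkg7 alone made up most of the marrow sums, with signals of 1028, 939 and 1626 there and 105, 110 and 137 in fetal liver. Cd2 differed by -0.55 ± 0.56 (adjusted p = 0.652), and Cd79a and Ms4a1 of B cells stayed below background on each fetal liver array. In marrow Cd79a was above background on 2 arrays and Ms4a1 on 1, and both overlapped between tissues and were too dim to be tested. For 8 dendritic cell markers the 1 gene tested, Zbtb46, differed by 1.71 ± 0.47 (adjusted p = 0.0674; past the threshold in 3 of 18 alternatives), and the sums were 158 to 279 and 335 to 489. Without Zbtb46, again chosen after its values were seen, they were 98, 111 and 136 in marrow and 75, 75 and 89 in fetal liver, the opposite order. Of 8 erythroid markers 3 of 7 tested rose (sums of 6402 to 11220 and 13793 to 27413). Tfrc, the transferrin receptor, rose by 1.01 (SE 0.21, adjusted p = 0.0222), a call lost without marrow replicate 2, without fetal liver replicates 1 and 2 and with no variance trend (0.00612 to 0.133 over all alternatives), and Ermap differed by 1.92 ± 0.65 (adjusted p = 0.123; past the threshold in 2 of 18 alternatives, among them without marrow replicate 1). Of 7 hepatocyte markers 0 of 5 tested passed the threshold in limma, beside 3 higher in fetal liver at an unadjusted p under 0.05, with sums of 238 to 635 and 632 to 3649 and fetal liver replicate 2 the highest. Afp differed by 1.81 ± 1.07 (adjusted p = 0.394) and Apoa1 by 2.51 ± 0.68 (adjusted p = 0.0634). Apoa1 was past the threshold as higher in fetal liver in 7 of 17 alternatives, median centring and quantile normalization included (0.0239 to 0.215 over all). Their part in the differences of the inflammasome genes was not tested either.

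**Figure D4:**
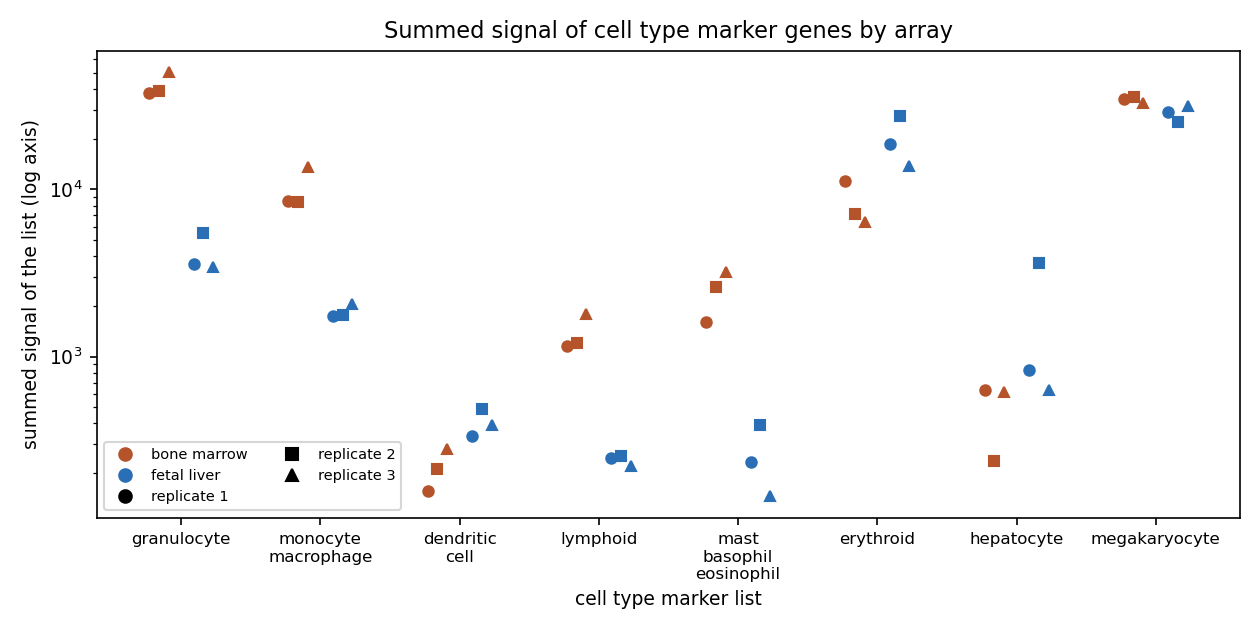
Summed signal of each cell type marker list on each array, on a log axis, with a point per array. The granulocyte, monocyte and macrophage, lymphoid, and mast cell lists have all marrow points above all fetal liver points, as does the megakaryocyte list by a small margin (33064 to 35851 against 25304 to 31541). The erythroid and dendritic cell lists show the reverse, the dendritic one through Zbtb46 alone. Most of the lymphoid sum in marrow is the single gene Nkg7. Most of the megakaryocyte sum is Pf4 and most of the monocyte and macrophage sum is Lyz2, in both tissues.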

How the data were processed

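RNA of 3 marrow and 3 fetal liver MkP samples was measured on 1 array each. The deposited table holds the authors' MAS5 signals, an intensity per probe set on a linear scale (MAS5 is credited to the submitters' processing notes). Its version and target were not stated in the sources used. On every array the mean after trimming 2% at each end was 500.0. Arrays give no read depth, and 3 per tissue limit the precision. Signals were converted to log2(signal + 2.87), the 10th percentile of all signals. Probe sets with a mean above the 40th percentile were kept (27022 of 45037). Gene symbols came from the platform annotation (34958 probe sets with 1 symbol, 932 with several, 9211 with none). The fit of fetal liver against marrow used lmFit and eBayes of limma 3.58.1 (R 4.3.3), with the variance allowed to follow intensity. Its p-values were adjusted by Benjamini and Hochberg's method across every probe set kept, at a threshold of 0.05. The fit was also run on simulated data with independent normal noise, which cannot check the normalization, the pairing or signals near background. Figures were drawn with matplotlib 3.10.9.

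Named genes are the members, up to 4 called genes per pathway list with the largest difference (the 2 with the smallest p where none was called), the 2 brightest genes of each marker list, and the nearest profiles; others were chosen after their values were seen to complete a role. The members, lists, motifs and tests were chosen with earlier results of these data known.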

Additional observations from a re-analysis of the deposited data

How the results depend on the processing

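The differences of the members are a description, and no stability is read from them. That of Casp1 was -4.89 with an offset of 16 and -4.35 with a floor at the bacterial controls, and Casp1 was left out by the 60th percentile filter. Over all probe sets, 886 were lower and 482 higher in fetal liver, against 1291 higher under median centring, 526 lower and 195 higher without the variance trend, and 1077 and 717 with a replicate block. Leaving out each array gave 477 to 689 lower and 140 to 455 higher. Pathway genes called higher, 0 in the reported fit, were Casp6 alone (1) with an offset of 16, the 60th percentile filter and 1 probe set per gene, and 2, Casp6 and Pstpip2, under median centring, quantile normalization, the mean of probe sets, the replicate block and without marrow replicate 3. Each is 1 in its own list. No other array left out gave such a call, so the range was 0 to 2. Pathway genes called lower were 9 without the variance trend and 8 to 10 with an array left out. With the 60th percentile filter, which tests fewer genes, 1 sensor, 1 caspase list gene and 0 IL-1 family genes were lower. Without the trend these were 1 caspase list gene, 1 membrane effector, 0 IL-1 family genes and 1 signalling gene. Leaving out each array gave 2 to 3 sensors, 3 to 5 regulators, 0 to 2 caspase list genes, 1 to 2 membrane effectors, 0 to 1 IL-1 family genes and 0 to 2 signalling genes. Same-numbered arrays deviated together at correlations of 0.123, -0.0181 and 0.096, and arrays of different numbers at -0.15 to 0.0912. The reported fit did not take the numbers as pairs, and these values do not settle whether they are. Among the genes named, with the block Nod1 was no longer called and Casp6, Pstpip2, Ermap and Apoa1 were. Except as stated, the cause of these changes was not tested. Signals near background, as for Nlrp3 and Il18, cannot show a difference.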
